A study of Saccharomyces cerevisiae BY4741 with 16 samples.

Results

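The proteasome genes of budding yeast, *Saccharomyces cerevisiae*, were followed by subcomplex after rapamycin, in a series designed to deplete RNA polymerase II (RNAPII) from the nucleus. They were chosen by systematic name, as the 14 genes of the 20S core (*PRE*, *PUP* and *SCL1*), the 6 genes of the ATPases *RPT1* to *RPT6*, and *RPN1* to *RPN13*, which include the regulator gene *RPN4*. All 33 were found among the 5218 genes with values. None was chosen by its signal, though the list was made with earlier results of these data known. The members were the 7 genes of the alpha ring, the 7 of the beta ring, the 6 ATPases of the base, 4 other genes of the base with *RPN10*, 8 genes of the lid, and *RPN4*.

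The proteasome is the protease that degrades ubiquitin-tagged proteins. Its barrel-shaped core has inner beta rings that hold the cutting sites and outer alpha rings that gate the entry. A regulatory cap sits on the core, with a base whose ATPases unfold the substrate and thread it inward, and a lid that removes the ubiquitin chain. In yeast the genes are known to be switched on together by the transcription factor Rpn4, which the proteasome itself degrades, so that its supply is fed back on demand. Trimethylation of histone H3 at lysine 4 (H3K4me3) is laid down at the start of transcribed genes by the Set1 complex. Trimethylation at lysine 36 (H3K36me3) is laid down along gene bodies by Set2, which travels with elongating RNAPII.

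Chromatin immunoprecipitation with sequencing measured both marks in log-phase cells grown in rich glucose medium. Samples were taken at 0, 20, 40 and 60 min after 1 ug/mL rapamycin had been added, with 1 library per mark and time. Every time point is labelled with the same strain, BY4741 Anchor-Away, of mating type *MATa*. Its genotype label names *his3D1*, *leu2D0* and *ura3D0*, the rapamycin-related alleles *tor1D1* and *fpr1D*, and the anchor RPL13-2xFKBP12-NATMX6. In the anchor-away method rapamycin bridges a tagged nuclear protein and an anchor on the ribosome, so that the tagged protein leaves the nucleus. Changes in *TOR1* and *FPR1* are used in such strains to make growth resistant to the drug. The label names no tagged RNAPII subunit, no untreated time course was among the groups, and no value used here measures RNAPII itself. Effects of rapamycin and of RNAPII loss cannot be told apart. The labels state no separate cultures.

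With 1 library per mark and time there was no replicate error, so no test was possible and the values describe these 8 libraries. Signal over *FPR1*, a gene that the genotype gives as deleted, was 2.26, 1.34, 3.86 and 1.04 for H3K4me3 at 0, 20, 40 and 60 min. For H3K36me3 it was 1.21 at 0 min, at percentile 56.0 of all genes, and 0.0335, 0.240 and 0.185 at the later times. The H3K36me3 library labelled 0 min thus held a mid-table signal over a gene labelled as deleted, which goes against the label. Every H3K36me3 change from 0 min rests on that library. The H3K4me3 libraries also held signal over this gene, at percentile 12.5 of all genes at 0 min and highest at 40 min. They do not bear out the label either. The cause was not tested. The change of a gene was taken as the log2 of its signal plus a small pseudocount at a later time over that at 0 min. The median gene stood at -0.06, -0.0024 and -0.18 for H3K4me3 at 20, 40 and 60 min, and at -0.41, -0.36 and -0.65 for H3K36me3. These medians depend on how the libraries are scaled. Scaling the 5% of genes with the lowest mean signal to their 0 min median moved the 60 min median up by 0.30 for H3K4me3 and by 0.60 for H3K36me3. Scaling each library to the same total moved it up by 0.17 and 0.66. Changes are therefore given below as relative changes, meaning the log2 change of a gene minus that of the median gene of the same mark and time. A relative change of 0 marks a gene that did as the median gene did, and such values hold under a single scale factor.

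Before rapamycin, both marks were high at most proteasome genes. H3K4me3 signal at 0 min had a median of 6.14 over the 33 genes, against 4.91 over all genes, and H3K36me3 signal a median of 2.20, against 1.08. In H3K4me3, 22 of 33 members lay in the top 25% of the table, where 27.0% of the genes past the filter on low signal did. In H3K36me3, 24 of 33 did, against 26.8%. Whether the deposited signal is per length of gene is not stated in the sources used here. The median percentile of the members was much the same among all genes and among genes within 25% of each member's length, at 82.5 and 84.8 for H3K4me3 and at 86.2 and 86.5 for H3K36me3.

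The core genes stood higher in H3K36me3 than the lid genes at 0 min. The 7 alpha ring genes ran from 1.83 to 4.16, the 7 beta ring genes from 1.39 to 3.55, the 6 ATPase genes from 1.46 to 3.05 and the 8 lid genes from 1.07 to 3.43. Their median percentiles among genes of like length were 93.4, 90.5, 83.3 and 72.5 in that order, so the ranges overlapped while the middle of each group did not coincide. H3K4me3 was more even, with median percentiles of 86.1, 91.2, 76.6 and 81.6. The 4 other base genes ran from 1.08 to 2.44 in H3K36me3. Their median percentiles among genes of like length were 76.8 in H3K36me3, near that of the lid, and 81.2 in H3K4me3. *PRE6* had the highest H3K36me3 signal of the members at 0 min, at 4.16. *RPN9*, *RPN13* and *RPN12* were lowest among the members, at percentiles 49.6, 50.2 and 53.0 of all genes, close to the middle of the table. Among genes of like length they were at 46.4, 69.7 and 51.9, so *RPN13* stood higher on that measure.

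**Figure D1:**
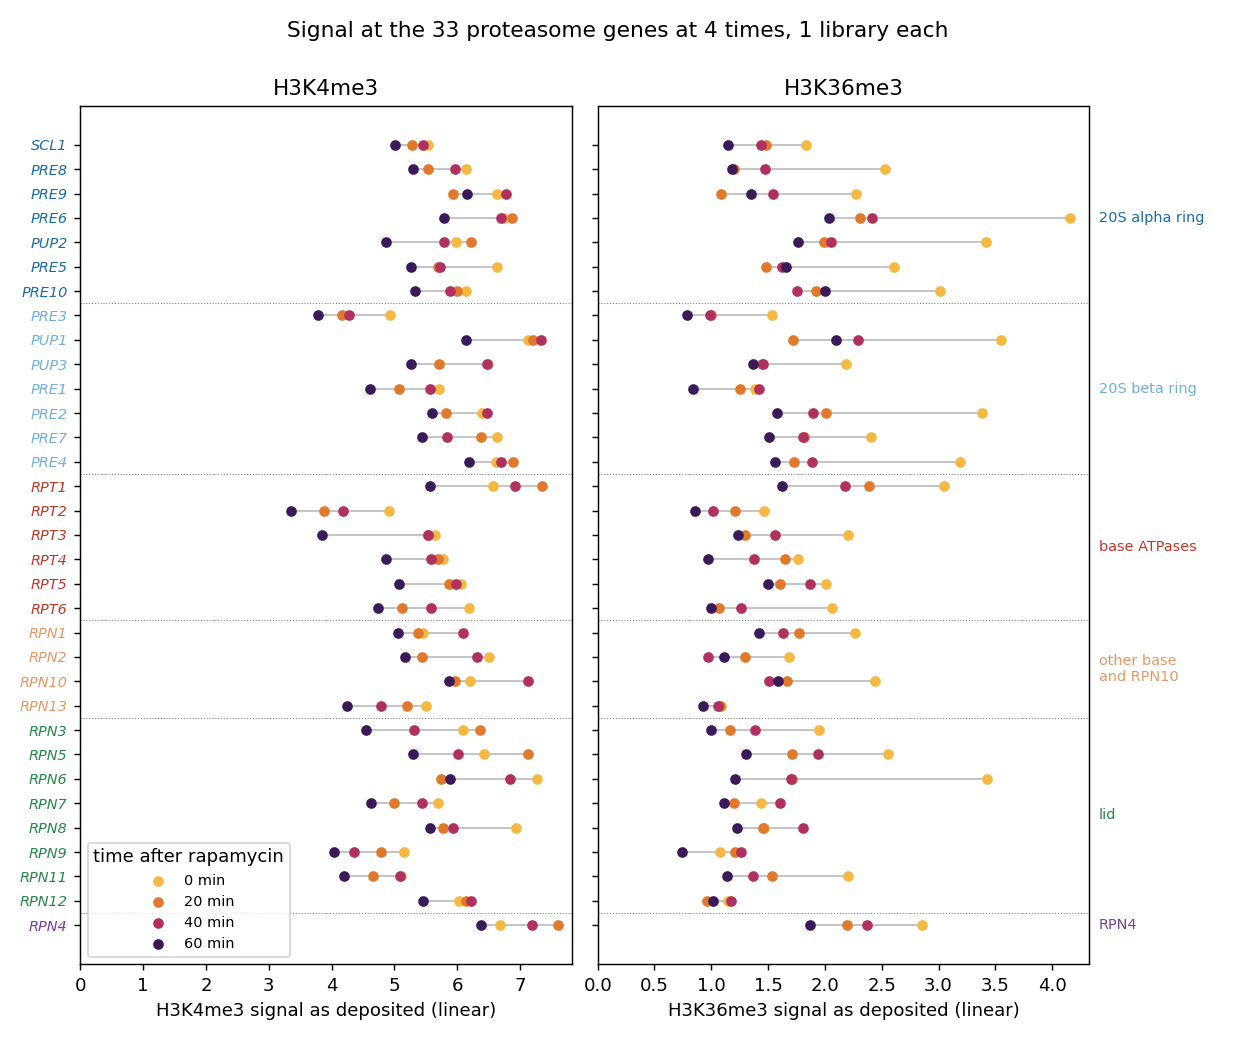
Signal as deposited (linear scale, horizontal axes) for H3K4me3 on the left and H3K36me3 on the right at each of the 33 proteasome genes (rows, grouped by subcomplex), with 1 point per time and 1 library behind each point. The H3K36me3 points of most core genes lie well apart between 0 min and the later times, as for *PRE6* at 4.16 and 2.31 at 0 and 20 min, while those of *RPN12* and *RPN13* lie close together; positions of the 4 times along an axis depend on the scaling of the libraries.

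As deposited, all 33 members were lower at 60 than at 0 min in both marks, as were 88.7% of all genes for H3K4me3 and 95.2% for H3K36me3, but these counts depend on the scaling. Scaled to the lowest 5% of genes, 14 and 24 members were lower, against 22.8% and 54.8% of all genes. Scaled to equal totals, 26 and 22 were, against 53.1% and 48.0%. In H3K36me3, 27 of 33 members were at least 1.5-fold lower at 60 min as deposited, against 56.9% of all genes. In H3K4me3 none was, against 1.2% of all genes. Under either scaling 1 member was in H3K36me3, *RPN6*. The share of all genes under the scalings was not worked out, so that count has nothing to be set against. Relative to the median gene, the members had a median of -0.10 in both marks at 60 min, with 26 of 33 below the median gene in H3K4me3 and 23 of 33 in H3K36me3, against 50.0% of all genes by construction. Taken between the 20 and 60 min libraries, with 0 min left out, these medians were -0.034 and 0.014. That change takes 20 min as its start, so it does not show which library sets a difference.

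Counts below the median gene were much alike in both marks at the earlier times. In H3K4me3 the members' relative median was -0.0042 at 20 min and -0.04 at 40 min, and 17 and 24 of 33 members were below the median gene. In H3K36me3 it was -0.13 at 20 min and -0.16 at 40 min, with 18 and 23 members below. At 60 min the interquartile range of the members was 0.13 log2 units in H3K4me3 and 0.35 in H3K36me3, against 0.20 and 0.50 for all genes. The members were thus somewhat less spread than the table as a whole at 60 min. At 20 min they were not, at 0.200 against 0.186 in H3K4me3 and 0.472 against 0.465 in H3K36me3. At 40 min they were at 0.166 against 0.169 and at 0.355 against 0.496. Their H3K36me3 changes ranged more widely than their H3K4me3 changes.

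The alpha ring genes had the lowest H3K36me3 changes of the subcomplexes at 20 and 40 min, although their signal stayed high, with a median of 1.66 at 60 min, against 2.61 at 0 min. Their relative median was -0.40 at 20 min, -0.37 at 40 min and -0.10 at 60 min, with 6 of 7 members below the median gene at each time. *PRE8*, which encodes subunit alpha 2 (YML092C, chromosome XIII, 85987 to 86739 in the R64 assembly), had the lowest 60 min change of the ring. Its H3K36me3 signal was 2.53, 1.20, 1.47 and 1.18 at 0, 20, 40 and 60 min, which gave relative changes of -0.66, -0.41 and -0.44. The 3 later values lay close together and far from that at 0 min.

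*PRE10*, which encodes alpha 7 (YOR362C), had the highest 60 min change of the ring. Its H3K36me3 signal was 3.01, 1.92, 1.75 and 2.00 at the 4 times, and its relative changes were -0.23, -0.42 and 0.06, so that it was lowest at 40 min. *PRE5* of alpha 6 and *PRE9* of alpha 3, the core subunit that yeast can live without, were lowest at 20 min. *PRE5* had 2.61, 1.48, 1.62 and 1.66, and *PRE9* had 2.27, 1.09, 1.54 and 1.35. In both genes the 40 and 60 min values lay above the 20 min value as deposited, where the median gene of the table was lowest at 60 min.

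*PRE6* (alpha 4) and *PUP2* (alpha 5) had low relative changes at all 3 later times, at -0.43, -0.42 and -0.38 for *PRE6* and -0.37, -0.37 and -0.30 for *PUP2*. *SCL1*, which encodes alpha 1, was the exception of the ring, at 0.11, 0.01 and -0.03. Between the 20 and 60 min libraries, 6 of 7 alpha ring genes were above the median gene, with a relative median of 0.21. In that change *PRE8*, *PRE6* and *PUP2* stood at 0.21, 0.045 and 0.056, and *PRE9*, *PRE5* and *PRE10* at 0.54, 0.39 and 0.29.

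H3K4me3 changes of the alpha ring stayed near that of the median gene, at relative medians of -0.0042, -0.04 and -0.03. *PRE5* was lowest at 60 min, with 6.63, 5.70, 5.73 and 5.26 at the 4 times and a relative change of -0.15, and it stood at 0.0059 between 20 and 60 min. *PRE9* was highest, with 6.64, 5.94, 6.78 and 6.16 and a relative change of 0.08. *PRE9* was thus among the members with the lowest H3K36me3 changes at 20 min, at percentile 4.03 of all changes, while its H3K4me3 change at 20 min was -0.10 relative to the median gene.

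The beta ring genes also had low H3K36me3 changes at 20 and 40 min, less so than the alpha ring. Their relative median was -0.21, -0.27 and -0.11 at the 3 later times, and all 7 were below the median gene at 60 min. *PRE2* encodes beta 5 with the chymotrypsin-like site (YPR103W, chromosome XVI, 732349 to 733212) and had the lowest 60 min change of the ring. Its H3K36me3 signal was 3.38, 2.01, 1.89 and 1.58 at the 4 times, with relative changes of -0.33, -0.47 and -0.45. Each later value lay below the one before it as deposited.

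*PUP3* (beta 3) had the highest 60 min change of the ring, with 2.19, 1.44, 1.46 and 1.37 and a relative change of -0.02. The other genes of the cutting sites differed in time course. *PUP1*, which encodes beta 2 with the trypsin-like site, had 3.55, 1.72, 2.29 and 2.10, so that its relative change of -0.63 at 20 min was -0.11 at 60 min. *PRE3*, which encodes beta 1 with the caspase-like site, had 1.54, 0.995, 0.990 and 0.787, at -0.21, -0.27 and -0.31. *PUP1* thus stood closer to the median gene at 60 than at 20 min and *PRE3* further from it.

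*PRE1* (beta 4) was the one core gene with H3K36me3 above its 0 min value at any later time as deposited, with 1.39, 1.25, 1.42 and 0.838. Its relative change was 0.27 at 20 min, 0.39 at 40 min and -0.07 at 60 min, so most of the difference lay between the 40 and 60 min libraries. *PRE4* (beta 7) stood at -0.46, -0.40 and -0.38, and *PRE7* (beta 6) at 0.01, -0.05 and -0.03. Between 20 and 60 min *PUP1*, *PUP3* and *PRE4* stood at 0.51, 0.15 and 0.076. The other 4 of 7 were below the median gene, *PRE1* at -0.34, *PRE2* at -0.12, *PRE3* at -0.11 and *PRE7* at -0.043. The relative median of the ring was -0.043 in that change.

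H3K4me3 of the beta ring had relative medians of -0.07, -0.0036 and -0.10, with 6 of 7 members below the median gene at 60 min. *PRE3* was lowest, with 4.92, 4.17, 4.29 and 3.78 at the 4 times and relative changes of -0.17, -0.20 and -0.19. *PRE4* was highest, with 6.61, 6.89, 6.70 and 6.19 and a relative change of 0.09 at 60 min. The change of *PRE3* was low in both marks, and that of *PRE4* was low in H3K36me3 and above the median gene in H3K4me3. Between 20 and 60 min the H3K4me3 changes of *PRE3* and *PRE4* were -0.021 and -0.034, and the ring's relative median was -0.021.

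**Figure D2:**
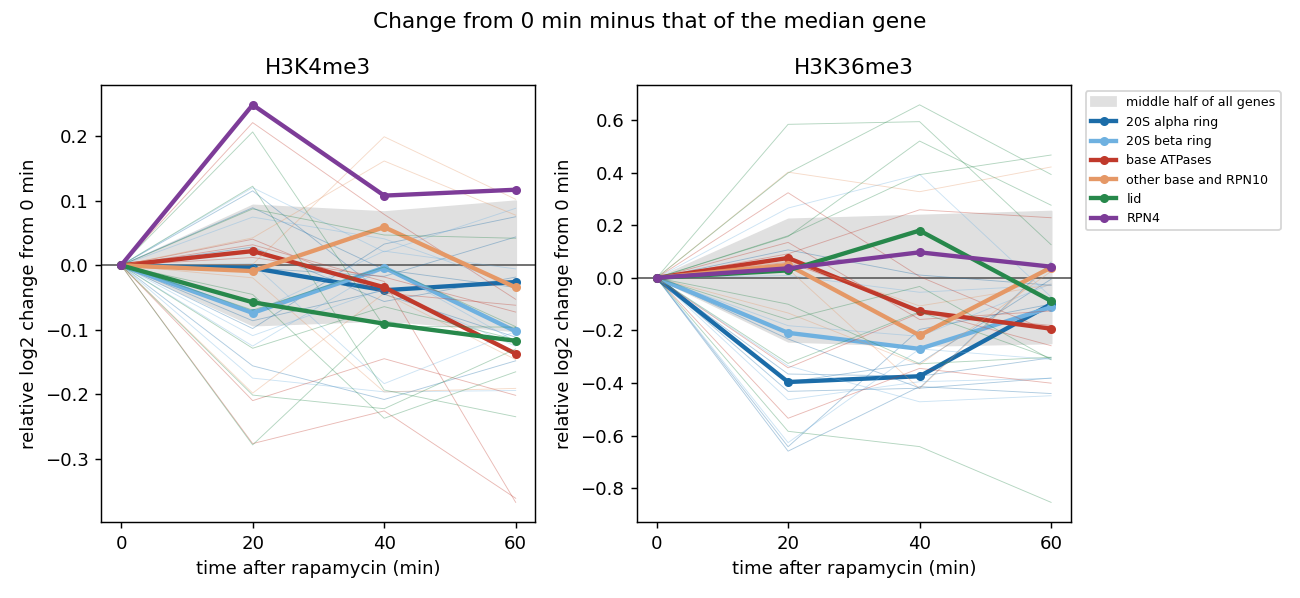
Relative log2 change from 0 min (vertical axes) against time after rapamycin in min, for H3K4me3 on the left and H3K36me3 on the right; thick lines are medians of the subcomplexes, thin lines single genes, and the grey band the interquartile range of all genes. The alpha ring lies at -0.40 at 20 min and -0.10 at 60 min in H3K36me3, and *RPN4* at 0.25 at 20 min in H3K4me3. The H3K36me3 median of the lid lies at 0.18 at 40 min, with 4 of its 8 genes below the median gene and 4 above, from -0.64 to 0.66.

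The ATPase genes of the base were the subcomplex with the lowest median H3K4me3 change at 60 min. Their relative median was 0.02 at 20 min, -0.03 at 40 min and -0.14 at 60 min, and all 6 were below the median gene at 60 min, with 2 and 5 of 6 below at 20 and 40 min. The medians of the lid and the beta ring were close to this at 60 min, at -0.12 and -0.10. *RPT1*, *RPT4* and *RPT5* stood above both of these, at -0.05, -0.06 and -0.07. *RPT3* (YDR394W, chromosome IV, 1261681 to 1262967) showed 5.65, 5.53, 5.54 and 3.84 of H3K4me3 signal over the time course, with relative changes of 0.03, -0.03 and -0.37. Its first 3 values were nearly level and the 60 min value stood apart from them.

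*RPT2*, whose product is known to open the gate of the core, reached much the same 60 min value along another course. It had 4.91, 3.88, 4.19 and 3.35, with relative changes of -0.28, -0.23 and -0.36, so that its change was already low at 20 min. These were at percentiles 1.82 (*RPT3*) and 1.97 (*RPT2*) of all 60 min changes. *RPT6* was at -0.21, -0.14 and -0.20. *RPT1* was the highest of the ATPase genes at 60 min, with 6.57, 7.34, 6.93 and 5.57 and relative changes of 0.22, 0.08 and -0.05, and its 20 min value was above its 0 min value under every scaling tried. Between 20 and 60 min *RPT3* and *RPT2* stood at -0.40 and -0.087 and *RPT6* at 0.0063. *RPT1* stood at -0.28 in that change, lower than all ATPase genes but *RPT3*, and the relative median was -0.096.

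In H3K36me3 the ATPase genes had relative medians of 0.08, -0.13 and -0.19 at 20, 40 and 60 min, with 5 of 6 members below the median gene at 60 min. *RPT6* was lowest, with 2.07, 1.07, 1.26 and 0.994 at the 4 times and relative changes of -0.53, -0.34 and -0.40, and it stood at 0.13 between 20 and 60 min. *RPT5* was highest, with 2.01, 1.60, 1.87 and 1.499 and relative changes of 0.09, 0.26 and 0.23. *RPT1* stood at -0.26 at 60 min, against 0.06 at 20 min, and *RPT4* at -0.21, against 0.32, so their lower standing came after 20 min. *RPT2* and *RPT3* stood at -0.13 and -0.18 at 60 min, close to the members' median in this mark, though their H3K4me3 changes were the lowest of the members.

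The other base genes encode the scaffolds *RPN1* and *RPN2* and the ubiquitin receptor *RPN13*, with the ubiquitin receptor gene *RPN10*, whose product sits between base and lid. In H3K4me3 they lay on both sides of the median gene. *RPN10* had 6.21, 5.96, 7.13 and 5.87 at the 4 times and relative changes of 0.0015, 0.20 and 0.10, with its 40 min value above the others. *RPN13* had 5.51, 5.20, 4.79 and 4.24, at -0.02, -0.20 and -0.19, each value below the one before as deposited. *RPN1* and *RPN2* stood at 0.08 and -0.15 at 60 min.

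H3K36me3 of these 4 genes had a relative median of 0.04 at 60 min, above the medians of the other subcomplexes. *RPN13* (YLR421C, chromosome XII, 965090 to 965560, the shortest member at 471 bases) had 1.08, 1.08, 1.06 and 0.927 and relative changes of 0.40, 0.33 and 0.42. It thus kept 85.4% of its 0 min H3K36me3 signal at 60 min and 77.0% of its H3K4me3 signal, as deposited. *RPN1* was lowest at 60 min, with 2.26, 1.77, 1.63 and 1.42 and a relative change of -0.03. *RPN2* and *RPN10* were lowest at 40 min, at relative changes of -0.42 and -0.33, and near the median gene at 60 min, at 0.05 and 0.02. Between 20 and 60 min *RPN13* stood at 0.014, close to the median gene.

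The lid genes were the most divided in H3K36me3. At 60 min 4 of 8 were below the median gene and 4 above it, from -0.85 for *RPN6* to 0.47 for *RPN12*, which were the lowest and the highest of all 33 members. *RPN6*, a scaffold that clamps the lid to the core (YDL097C, chromosome IV, 285391 to 286695), had H3K36me3 signal of 3.43, 1.71, 1.71 and 1.20 at the 4 times. Its relative changes were -0.58, -0.64 and -0.85, at percentile 2.16 of all genes at 60 min, and 35.1% of the 0 min signal was left as deposited. The 20 and 40 min values were nearly equal, and those at 0 and 60 min lay to either side.

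*RPN12* (YFR052W, chromosome VI, 252505 to 253329) had 1.15, 0.961, 1.17 and 1.01, with relative changes of 0.16, 0.39 and 0.47, and 88.2% of its 0 min signal was left at 60 min. Its 4 values lay close together. *RPN7*, *RPN8* and *RPN9* encode structural lid subunits and shared with *RPN12* a highest value at 40 min. *RPN8*, the partner of the deubiquitinase Rpn11, had 1.47, 1.45, 1.81 and 1.23, at 0.40, 0.66 and 0.39. *RPN7* had 1.44, 1.20, 1.61 and 1.11, at 0.16, 0.52 and 0.28.

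*RPN9* had 1.07, 1.21, 1.26 and 0.746, with relative changes of 0.58, 0.59 and 0.13. It was the one member with more H3K36me3 at 20 than at 0 min as deposited, where 88.4% of all genes had less, and only its 60 min value was below that at 0 min. In all, 5 of 33 members had their highest H3K36me3 at 40 min, these 4 lid genes and *PRE1*, and the other 28 at 0 min, as did 79.6% of all genes. All 5 were among the 10 members with 0 min signal below the top 25% of genes past the filter.

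The other 4 lid genes had relative changes below 0 at all 3 later times. *RPN11*, which encodes the deubiquitinase itself, had 2.20, 1.54, 1.36 and 1.14, at -0.10, -0.33 and -0.30. *RPN3* and *RPN5*, which encode scaffold subunits, ended at -0.31 each. Between 20 and 60 min *RPN6*, *RPN5* and *RPN11* also stood below the median gene in H3K36me3, at -0.28, -0.16 and -0.21, while *RPN3* stood at 0.014, *RPN8* at -0.012 and *RPN9* at -0.46.

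In H3K4me3 7 of 8 lid genes were below the median gene at 60 min, with a relative median of -0.06, -0.09 and -0.12 at the 3 later times. *RPN3* was lowest, with 6.09, 6.36, 5.31 and 4.55 at the 4 times and relative changes of 0.12, -0.19 and -0.23. *RPN12* was highest, with 6.03, 6.14, 6.22 and 5.46 and a relative change of 0.04. *RPN8* and *RPN9*, whose H3K36me3 changes were high at 40 min, stood at -0.22 and -0.24 in H3K4me3 at that time. *RPN6* had 7.28, 5.74, 6.84 and 5.89, so its relative H3K4me3 change of -0.28 at 20 min was -0.12 at 60 min. Between 20 and 60 min *RPN6* stood at 0.16, and 5 of 8 lid genes were below the median gene, with a relative median of -0.038.

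*RPN4*, the regulator gene (YDL020C, chromosome IV, 415113 to 416708), had the highest relative H3K4me3 change of the 33 members at 20 and 60 min. Its H3K4me3 signal was 6.68, 7.62, 7.19 and 6.38 at 0, 20, 40 and 60 min, with relative changes of 0.25, 0.11 and 0.12. At 20 min this was at percentile 95.7 of all genes. The 20 and 40 min values were above the 0 min value as deposited and under both scalings, and the 60 min value was below it as deposited and above it under both scalings. Among the subunit genes *PRE6*, *PUP2*, *PRE4*, *RPT1*, *RPN3* and *RPN5* also had their highest H3K4me3 at 20 min as deposited. Of these *RPT1* and *RPN5* had the highest relative changes at that time, 0.22 and 0.21, with signal of 7.34 and 7.12. Between 20 min, the time of its highest value, and 60 min *RPN4* stood at -0.13, below the median gene. H3K36me3 of *RPN4* was 2.85, 2.19, 2.37 and 1.87, at 0.04, 0.10 and 0.04, near the median gene throughout and above the subunits' relative median of -0.11 at 60 min.

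The changes of the marks had little relation over the members. At 60 min the H3K36me3 and H3K4me3 changes had a Spearman rho of 0.0257 over the 33 members, against 0.181 over the 4657 genes past the filter in both marks. The levels at 0 min had a rho of 0.625 over the members and 0.696 over those genes. Members share the libraries of each mark, and genes are not independent replicates, so these are descriptions. *RPN6* had the lowest H3K36me3 change at an H3K4me3 relative change of -0.12, while *RPT3* and *RPT2* had the lowest H3K4me3 changes at H3K36me3 changes of -0.18 and -0.13.

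**Figure D3:**
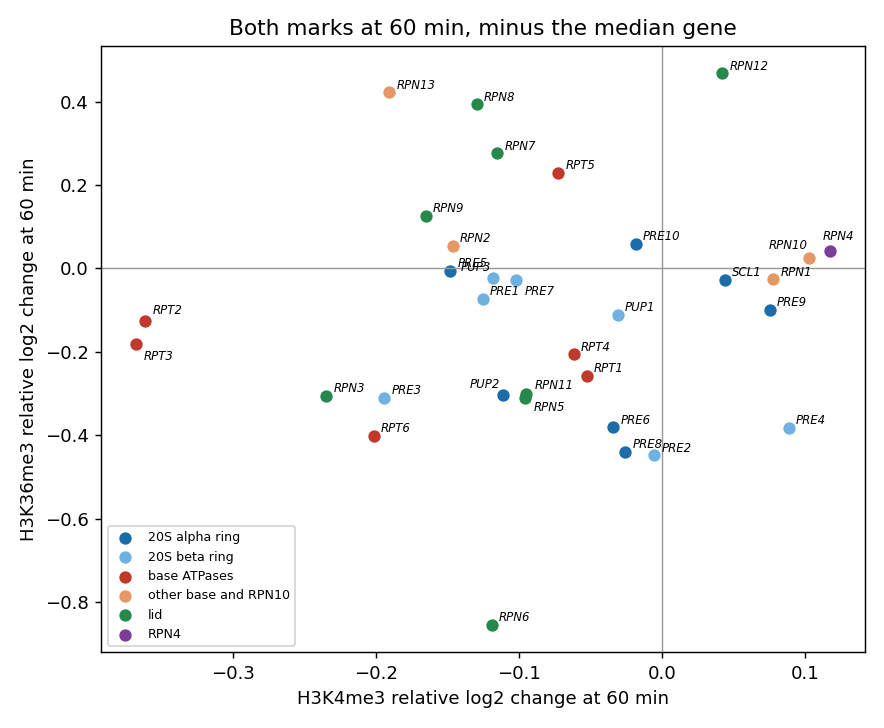
Relative log2 change at 60 min of H3K36me3 (vertical axis) against that of H3K4me3 (horizontal axis), 1 point per proteasome gene, coloured by subcomplex, with 0 marking the median gene. *RPN6* stands at -0.85 on the vertical axis, *RPT3* at -0.37 and *RPT2* at -0.36 on the horizontal axis, and the lid genes spread along the vertical axis.

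Members with more H3K36me3 at 0 min had lower H3K36me3 changes. Over the 33 members the change at 60 min and the 0 min signal had a rho of -0.546, against -0.248 over the 4657 genes. The library labelled 0 min stands on both sides of that relation. For the change from 20 to 60 min the rho with the 0 min signal was 0.222, and with the 20 min signal -0.174. In the top 25% of 0 min signal among genes past the filter, the 12 core genes there had relative medians of -0.38, -0.35 and -0.11 at the 3 later times, and the 10 other subunit genes there had -0.15, -0.13 and -0.28. The 1192 other genes of that range had -0.17, -0.15 and -0.13. At 20 and 40 min the core genes thus stood below those other genes, and at 60 min close to it. Over the members, gene length and the H3K36me3 change at 60 min had a rho of -0.0204. The changes at 20 and 40 min were not set against length. The core genes ran from 597 to 867 bases and the ATPase genes from 1218 to 1404, so these groups also differ in length.

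**Figure D4:**
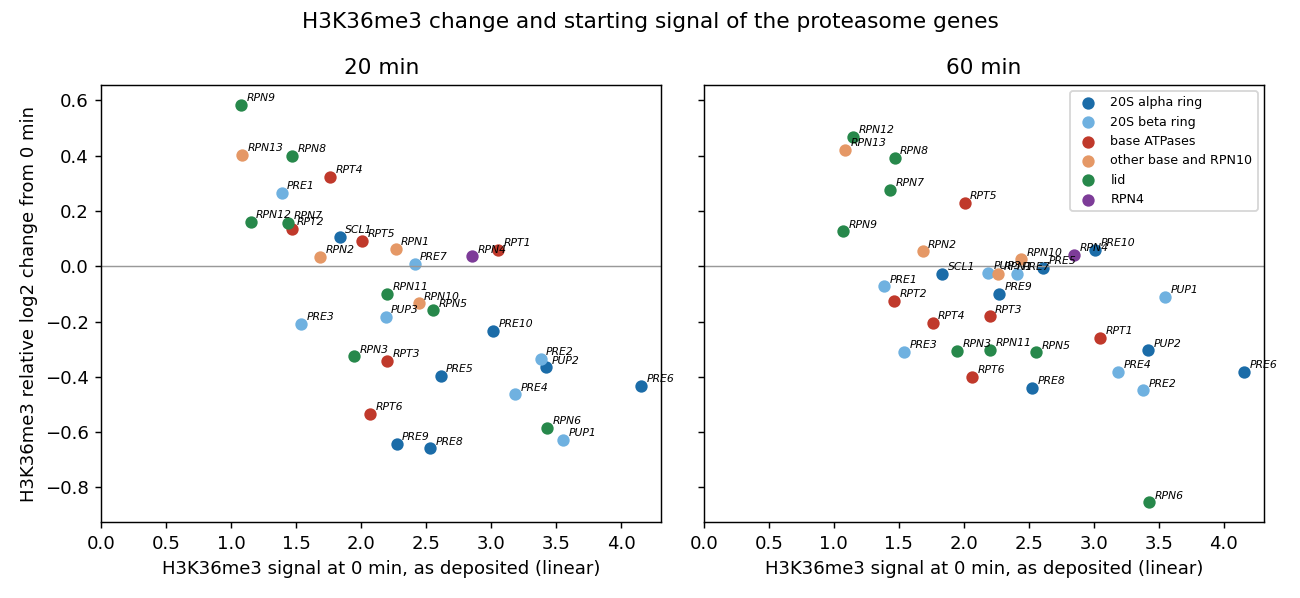
H3K36me3 relative log2 change (vertical axes) at 20 min on the left and 60 min on the right against the H3K36me3 signal at 0 min as deposited (horizontal axes, linear), 1 point per proteasome gene, coloured by subcomplex. *RPN9*, *RPN13* and *RPN12*, with the lowest starting signal, lie above the median gene in both panels, though *PRE3* at 1.54 lies below it in both, and those above 3, such as *PUP1* at -0.63 at 20 min, mostly lie below it; the 0 min library is part of both axes.

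The steps between neighbouring libraries differed by subcomplex in H3K36me3. From 20 to 40 min the lid had a relative median step of 0.17 and the other base genes one of -0.18, and from 40 to 60 min the lid had -0.24 and the other base genes 0.21. The alpha ring had 0.02 and 0.06 in these steps and the ATPase genes -0.0017 and -0.06. In H3K4me3 all 33 members were lower at 60 than at 40 min as deposited, as were 96.4% of all genes, and 12 were lower at 40 than at 20 min, against 33.1%. The step from 40 to 60 min was lowest in *RPT3*, at -0.34 relative to the median gene. In H3K36me3 29 members were lower at 60 than at 40 min, against 89.1%, and 14 were lower at 40 than at 20 min, against 41.8%.

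Counts at the earlier times stood as follows, all as deposited. In H3K4me3, 24 of 33 members were below their 0 min value at 20 min, against 67.4% of all genes, and 24 were at 40 min, against 50.7%. No member was 1.5-fold lower in this mark at 20 or 40 min, where 0.0207% and 0.0829% of all genes were. At 0 min 20 members had their highest H3K4me3, against 41% of all genes, and these are the members below 0 min at all 3 later times. At 60 min 31 members had their lowest, against 72.8%, and *PRE9* and *RPN6* had theirs at 20 min. In H3K36me3, 15 members were at least 1.5-fold lower at 20 min, against 31.5%, and 14 were at 40 min, against 27.5%. At 40 min 28 were below 0 min, against 84.3%. At 60 min 26 had their lowest value, against 72.9%, while *PRE9*, *PRE5*, *PUP1* and *RPN12* had it at 20 min and *PRE10*, *RPN2* and *RPN10* at 40 min. Some of these shares lay close to those of all genes, as 28 of 33 against 84.3%, and others above, as 31 of 33 against 72.8%. The counts overlap and come from the same libraries, so they do not add up to 1 result. No test of the difference was possible.

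The neighbours of the members were read from the protein-coding genes of the R64 gene table, with the strand taken from the systematic name. No member overlapped another protein-coding gene of that table, and other kinds of gene were not searched. Of the 33, 21 faced a divergent upstream neighbour and 12 followed a gene on the same strand, with median gaps of 389 and 381.5 bases. In H3K4me3 the 21 had a relative median of -0.10 at 60 min and 18 were below the median gene, and the 12 had -0.04 and 8 below. Of the divergent neighbours 19 passed the filter, with a relative median of -0.08 and 12 below the median gene. Of the tandem neighbours 11 passed, with 0.04 and 4 below. In H3K36me3 the members had relative medians of -0.11 (divergent) and -0.09 (tandem), and their neighbours 0.01 and 0.07. *RET2*, a coat protein gene between *PRE4* and *RPN12* and upstream of both, stood at -0.22 in H3K4me3 at 60 min, against 0.09 and 0.04 for these members. It stood at -0.49 in H3K36me3, against -0.38 for *PRE4* and 0.47 for *RPN12*, so this member and its neighbour lay on opposite sides of the median gene.

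Other genes of the pathway were taken from 3 lists made by function. Of 16 genes of assembly factors and associated proteins, 4 were below the median gene in H3K4me3 at 60 min and 7 in H3K36me3, with relative medians of 0.07 and 0.05. *SEM1*, which encodes a small subunit of the lid, had the lowest change of this list in both marks. It had H3K4me3 of 3.90, 3.40, 3.41 and 2.81 at the 4 times and H3K36me3 of 0.954, 0.709, 0.579 and 0.347, with relative changes of -0.28 and -0.78 at 60 min. *POC4*, which encodes a chaperone of alpha ring assembly, was the highest in both, at relative changes of 0.34 and 0.81. Its H3K4me3 signal was 4.14, 4.48, 5.01 and 4.64, and its H3K36me3 signal was 0.384, 0.423, 0.610 and 0.431. The assembly factors thus lay mostly above the median gene in H3K4me3, where 26 of 33 members lay below it.

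Of 9 genes of ubiquitin, Cdc48 and shuttle factors, 6 were below the median gene in H3K4me3 and 5 in H3K36me3, with relative medians of -0.03 and -0.04. *DSK2*, which encodes a shuttle that brings ubiquitin-tagged proteins to the proteasome, was lowest in both marks, at -0.26 in H3K4me3 and -1.01 in H3K36me3. Its H3K36me3 signal was 3.91, 2.19, 1.60 and 1.23 at the 4 times. *UBI4*, the polyubiquitin gene, was highest in H3K4me3, with 2.17, 2.50, 2.80 and 3.45 and a relative change of 0.84, each value above the one before. It consists of repeats that other ubiquitin genes also carry, so its reads could be split and its values are uncertain. *UBA1*, which encodes the ubiquitin-activating enzyme, was highest in H3K36me3, at 0.45.

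Of 7 genes whose products act on Rpn4 or on its gene, 6 had values, and *UBR2* is not analysed here. In H3K4me3 5 of the 6 were below the median gene at 60 min, with a relative median of -0.29, and in H3K36me3 3 of 6, with -0.36. *HSF1*, the heat shock factor gene and an activator of *RPN4*, was lowest in H3K4me3, with 6.38, 5.14, 5.24 and 3.90 at the 4 times and a relative change of -0.52. *PDR1*, another activator, was lowest in H3K36me3, with 2.07, 1.21, 0.993 and 0.681 and a relative change of -0.94. *RAD6*, which encodes the ubiquitin-conjugating enzyme for Rpn4, was highest in H3K4me3 at 0.05, and *MUB1*, which encodes a partner in that step, highest in H3K36me3 at 0.33. *RPN4* itself was above the median gene at 60 min in H3K4me3, at 0.12, and close to it in H3K36me3, at 0.04. *HSF1* and *PDR1* were below the median gene in both marks, but each was named as the lowest of the list in a mark. In H3K36me3 *PDR3*, *MUB1* and *RAD6* stood above the median gene, at 0.16, 0.33 and 0.0072, and the other 3 below it.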

How the data were processed

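The authors deposited 1 table with a linear signal per gene in 8 columns, whose headings name the mark and the time. The tools Bowtie2, SAMtools and bedtools and the builds ASM294v2 and sacCer3 come from the submitters' processing notes. Per the labels' protocols, *Schizosaccharomyces pombe* cells (25%) served as spike-in. Whether the signal was divided by input, spike-in or gene length, and which stretch of each gene was measured, is not given in the sources used here. Each column was taken as the immunoprecipitated library of its mark and time, and the input libraries were not used. Depth is unknown, so no interval is given.

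Of 5222 lines, 3 were blank, 1 had no values and 5218 genes were used. All 33 members matched the R64 gene table by systematic name, as did 5115 genes in all. To each signal a pseudocount was added, 0.0491 (H3K4me3) or 0.0108 (H3K36me3), which is 1% of the mark's 0 min median and makes changes at low genes look smaller. The filter asked for a mean over times of at least 25% of the median gene's mean. It kept 4826 and 4861 genes, all members included. Calls were set at a fold of 1.5. Members and lists were chosen with earlier results of these data known. Values at all times were given for *RPN4* and, in each subcomplex and mark, for the members lowest and highest at 60 min. Others so described were chosen after their values were seen. For the lists, the lowest and highest genes are named. The steps were checked on simulated levels, with Python 3.11.15, numpy 2.4.6 and pandas 2.3.3.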

Additional observations from a re-analysis of the deposited data

How the results depend on the processing

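The alternatives were another pseudocount or none, no filter, both scalings, and the change from 20 to 60 min. Others were the 40 min library in place of 60 min, genes that overlap no other protein-coding gene, and the list without *RPN4*. Relative changes of single genes moved by less than 0.1 log2 units in all 330 cases under other pseudocounts, filters and scalings, and a single scale factor cannot move them much by construction. Under the 2 settings that change a library, 62 of 132 moved by more or turned sign, 26 of 33 in H3K36me3 from 20 to 60 min. A limit of 0.1 is as large as most medians of members and subcomplexes here, so a median within it is no sign of stability. The cause of these differences was not tested. Scaled to the lowest 5% of genes, 14 members were below 0 min in H3K4me3 at 60 min. The count of members at least 1.5-fold lower in H3K36me3 was 14 at 40 min, against 27.5% of all genes. It was 1 under either scaling and 2 from 20 to 60 min, where the share of all genes was not worked out.

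From 20 to 60 min, the H3K36me3 relative median was 0.014 for all members, 0.21 for the alpha ring and -0.070 for the ATPase genes. With 40 min in place of 60 min, it was -0.37 for the alpha ring, -0.27 for the beta ring and -0.22 for the other base genes. For the lid it was 0.18, with 4 of 8 genes below the median gene and 4 above. The H3K4me3 relative median of the ATPase genes was -0.034 at 40 min. From 20 to 60 min the sign turned in 12 of 33 genes in H3K4me3 and 13 in H3K36me3, and at 40 min in 4 and 6. Among genes with a reported change of at least 0.1, it turned from 20 to 60 min in H3K4me3 for *PRE5* (0.0059), *PUP3* (0.0053), *RPT6* (0.0063), *RPN2* (0.050), *RPN6* (0.16), *RPN7* (0.012), *RPN8* (0.070) and *RPN4* (-0.13). In H3K36me3 it turned for *PRE8* (0.21), *PRE6* (0.045), *PUP2* (0.056), *PUP1* (0.51), *PRE4* (0.076), *RPT3* (0.16), *RPT6* (0.13), *RPN3* (0.014), *RPN8* (-0.012) and *RPN9* (-0.46), and at 40 min for *RPT4* (0.0050). No paired analysis was possible because each mark and time has 1 library. The search of promoters for the Rpn4 motif was not run, since no promoter sequence was used here. The deposited signal gives no counts, so what depth limits could not be worked out.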
